A study of Homo sapiens with 25 samples.

Results

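The interferon-stimulated genes are a set of 53 genes chosen by name, as transcripts known to rise when cells sense interferon or viral nucleic acid. In these arrays 52 of the 53 were measured by a probe set that carries a single gene symbol, out of 19775 genes measured in the same way, and 49 passed the filter on low values, out of 12643 genes tested. STAT2 was not analysed here, and MX2, TRIM22 and EPSTI1 were measured but not tested. The samples were 25 Affymetrix expression arrays of total RNA in 8 groups of cultured human cells, with log2 GCRMA values (a background-corrected and normalised signal, on a scale where 1 unit is a doubling). The labels give erlotinib, an inhibitor of the EGFR kinase, at 10 µM for every sample, those at 0 min included. BT20, a breast cancer line with much EGFR, has 4 arrays at 0 min and 3 each at 30 min, 6 h and 24 h. MDA-MB-453, a breast cancer line with androgen receptor, has 3 arrays at 0 min and 3 at 24 h, and so has a line named in the labels only as MCF. No group was kept for 24 h without the drug, so drug and time in culture cannot be told apart. Nothing in the labels says whether replicates were separate cultures, so a p-value here measures the spread between these samples, which may be technical.

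Type I and type III interferons bind receptors built from IFNAR1 and IFNAR2 or from IFNLR1 and IL10RB, and the JAK kinases on those receptors then activate STAT proteins. A complex of STAT proteins with IRF9 binds the interferon-stimulated response element (ISRE). Interferon gamma produces a STAT dimer that binds another site, the gamma-activated sequence (GAS). IRF1, itself switched on through a GAS, can then act on ISRE-like sites. The products of the genes sense foreign RNA, degrade or bind it, attach the ubiquitin-like protein ISG15 to other proteins, or block virus entry and release. Epithelial cells, breast cancer cells included, can run this programme without immune cells present.

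The 6 sequences below show how the members differ in these sites, within the cluster of IFIT genes and among regulators and PARP14. They are the 170 bases before the transcription start in RefSeq (build GRCh38.p14), read 5′ to 3′ on the gene's own strand, with each match to the ISRE core (GAAA, any 2 bases, GAAA) or the GAS (TTCNNNGAA), on either strand, in capitals. IFIT3, IFIT1 and IFIT5 are shown because they carry like sites and moved apart in BT20, and the other 3 because they rose with a GAS.
IFIT3: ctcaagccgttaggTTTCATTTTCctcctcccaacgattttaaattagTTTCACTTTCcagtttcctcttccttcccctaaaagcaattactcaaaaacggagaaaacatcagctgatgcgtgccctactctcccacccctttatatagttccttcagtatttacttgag
IFIT1: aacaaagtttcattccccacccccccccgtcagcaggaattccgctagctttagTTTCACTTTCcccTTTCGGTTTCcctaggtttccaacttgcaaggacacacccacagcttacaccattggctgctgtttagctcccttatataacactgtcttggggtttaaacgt
IFIT5: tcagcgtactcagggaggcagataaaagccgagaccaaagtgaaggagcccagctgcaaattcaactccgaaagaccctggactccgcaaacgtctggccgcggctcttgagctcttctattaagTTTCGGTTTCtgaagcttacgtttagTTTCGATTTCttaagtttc
PARP14: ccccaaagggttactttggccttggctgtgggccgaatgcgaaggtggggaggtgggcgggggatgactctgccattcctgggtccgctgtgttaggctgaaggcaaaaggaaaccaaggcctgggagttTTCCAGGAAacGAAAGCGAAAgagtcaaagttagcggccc
IRF1: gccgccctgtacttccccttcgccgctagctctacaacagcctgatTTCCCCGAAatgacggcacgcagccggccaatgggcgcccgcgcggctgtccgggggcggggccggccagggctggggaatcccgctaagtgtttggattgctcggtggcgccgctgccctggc
IRF9: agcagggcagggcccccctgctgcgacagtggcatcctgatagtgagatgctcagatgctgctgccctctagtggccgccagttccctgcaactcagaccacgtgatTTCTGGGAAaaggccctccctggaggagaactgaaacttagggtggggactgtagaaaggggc
The IFIT genes lie in a cluster on chromosome 10, with the windows chr10:89327827-89327996 (IFIT3, plus strand), chr10:89392453-89392622 (IFIT1, plus) and chr10:89414398-89414567 (IFIT5, plus). Each of the 3 windows holds 2 ISRE cores, all on the opposite strand. PARP14 (chr3:122680669-122680838, plus) holds a GAS that ends 32 bases before the start and an ISRE core that begins 29 bases before it. IRF1 (chr5:132490774-132490943, minus) and IRF9 (chr14:24161095-24161264, plus) each hold a GAS and no ISRE core in these letters. Over the 250 bases before the start, 42 members had a window in the RefSeq table, and 22 of them (52.4%) held an ISRE core, against 3.07% of 27305 promoters of the same length. A GAS was found in 9 members (21.4%), against 6.78% of all promoters. In 3 of the 5 members with both, BST2, IFI27 and EPSTI1, the matches to the patterns share bases. A match is a description of the letters, not a site shown to be bound.

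Before the results, one array needs description. BT20 0 min replicate 4 correlated with the 3 arrays at 6 h at 0.989 to 0.992 over the members, and with the other 3 arrays at 0 min at 0.968 to 0.969. Over all genes tested the values were 0.990 to 0.992 and 0.971 to 0.975. Counts of members in BT20 at 6 h and 24 h are therefore also given from a fit with a term shared by replicate 4 and the 6 h arrays. The comparisons between lines, the other genes of the pathway and most changes of single genes are given mainly from all 4 arrays at 0 min. In the fit with the term, 6 h is measured against replicate 4 alone and 24 h against replicates 1 to 3. That comparison at 6 h has an arm of 1 array, which is assumed to vary like the other groups, since its spread comes only from them. Whether replicate 4 carries the right label could not be settled. If it were a 6 h array, values against it would compare 6 h with 6 h, and means over all 4 arrays at 0 min would mix both times. The arrays of BT20 and MDA-MB-453 form Part 1 of the series and those of MCF Part 2, so levels are compared only between BT20 and MDA-MB-453, and MCF is set beside them through changes measured within it. As a check of the labelled cells, all 6 epithelial markers measured (such as EPCAM and KRT18) had means above 4 in every group. Of 6 fibroblast markers COL1A1 did in every group, with a mean of 9.11 at 0 min and 9.56 at 24 h in BT20 and 11.1 and 11.2 in MDA-MB-453, and COL3A1 did in MCF, while COL1A2, DCN, LUM and PDGFRB stayed below 4. The summed linear signal of these 6 ran from 406 to 687 over the BT20 arrays at 0 min and from 758 to 819 at 24 h, and its part in the results was not tested. Of 8 blood cell markers none did, and CD14, the one with the highest mean in BT20 at 24 h, went from 2.43 at 0 min to 3.88 there. The summed linear signal of those 8 markers ran from 35.1 to 37.7 over the BT20 arrays at 0 min and from 44.8 to 46.5 at 24 h, and PTPRC and CD3E stayed below 4 throughout. In RNA from a whole culture, more cells with a transcript and more transcript per cell cannot be told apart.

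**Figure D1:**
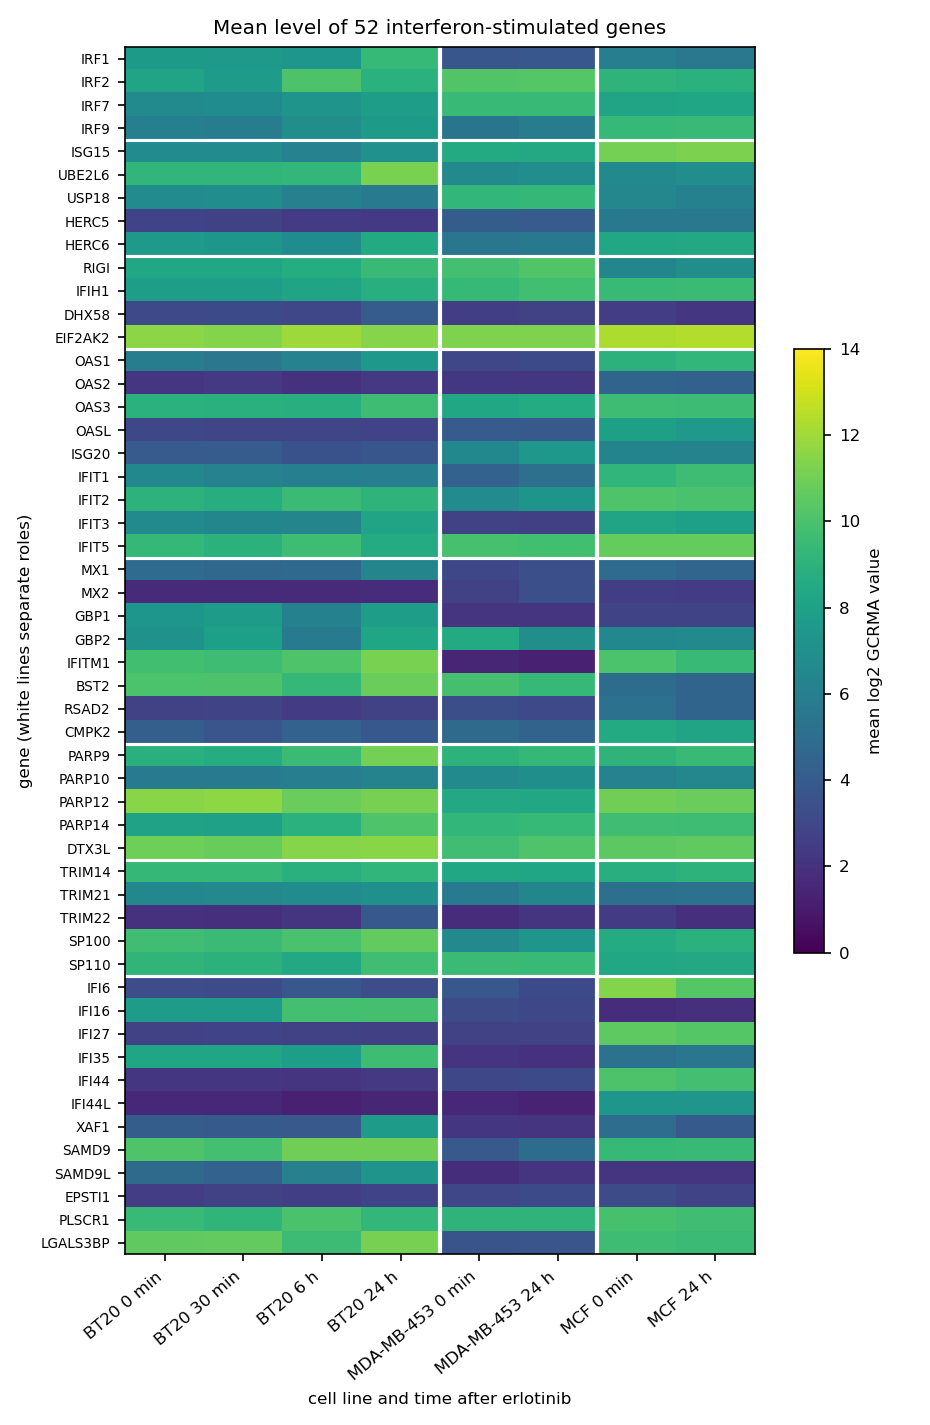
Mean log2 GCRMA value (colour) of the 52 measured interferon-stimulated genes (rows, grouped by role) in the 8 groups of cell line and time after erlotinib (columns); vertical white lines separate the lines. IFITM1 had 9.78 in BT20 and 1.48 in MDA-MB-453 at 0 min, and colours are to be compared along a row and between those lines only, since probe sets differ in brightness and MCF is a separate part of the series.

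The set was split in BT20 after 24 h of erlotinib. Of the 49 members tested, 28 rose and 4 fell, while 17 did not pass the test (limma, adjusted p under 0.05). Over all genes tested in the same comparison 24.1% rose and 18.3% fell, so that 42.4% were called in 1 direction or the other. The counts by role below are to be read beside these shares and were not tested as sets. The median change of the members was 0.64 in log2 units, against 0.03 over all genes tested, and the range was -1.05 to 3.57. A rise of at least 1 unit was seen in 16 members and of at least 2 units in 5, XAF1, SAMD9L, PARP9, IFI16 and PARP14. With the shared term 30 rose and 7 fell (background 30.6% up and 24.9% down), 27 of the 28 and all 4 of the fallen among them. Leaving out replicate 4 is the same comparison at 24 h, so its counts of 30 and 7 are no second check. A single fit to all 25 arrays gave 22 up and 3 down, with 32.8% of all genes called.

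Among the regulators, the transcription factors of the pathway, 3 of 4 tested rose and none fell. IRF1, which activates many of the other genes, read 8.03, 7.48, 7.55 and 7.37 on the 4 arrays at 0 min (here and below in the order of the replicate numbers) and 9.39, 9.45 and 9.24 on the 3 at 24 h. Every array at 24 h lay above every one at 0 min, and the rise was 1.75 ± 0.14 (standard error here and below; adjusted p = 9.73e-07), or 3.36-fold. IRF9, the DNA-binding partner of the STAT proteins, read 6.14, 6.11, 5.69 and 6.31 at 0 min and 7.72, 7.62 and 7.51 at 24 h. Its groups were also apart, with a rise of 1.55 ± 0.17 (adjusted p = 1.61e-05). IRF7, which amplifies interferon production, read 6.90, 6.88, 6.58 and 6.41 before and 7.97, 7.74 and 7.79 after, a rise of 1.14 ± 0.14 with no overlap (adjusted p = 4.01e-05). IRF2, an antagonist of IRF1, read 7.51, 7.50, 7.84 and 9.77 at 0 min and 8.78, 9.03 and 9.01 at 24 h. Replicate 4 lay above the 24 h arrays and the other 3 below them, and the change of 0.78 ± 0.43 was not called (adjusted p = 0.162). Against replicates 1 to 3 it was 1.32 ± 0.12 and called (adjusted p = 6.32e-07).

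The genes of ISG15 and its conjugation went in both directions, 2 up and 2 down of 5, where 24.1% of all genes rose and 18.3% fell. UBE2L6, the enzyme that carries ISG15 to its ligases, read 9.48, 9.41, 9.01 and 8.93 at 0 min and 11.14, 11.31 and 11.10 at 24 h, so that the groups stood well apart. Its rise was 1.98 ± 0.14 (adjusted p = 4.35e-07), or 3.93-fold. HERC6, a relative of the main ISG15 ligase, read 7.83, 7.81, 7.57 and 6.91 and then 8.62, 8.49 and 8.63. All 3 later arrays were higher, replicate 4 being the lowest of the earlier ones, and the rise was 1.05 ± 0.18 (adjusted p = 0.000549). USP18, the protease that removes ISG15 and also restrains the type I receptor, went the other way, from 6.997, 6.77, 6.70 and 6.62 to 5.63, 5.54 and 6.00. All 3 arrays at 24 h were lower than all 4 at 0 min, and it fell by 1.05 ± 0.14 (adjusted p = 6.52e-05). HERC5, the main ligase, fell by 0.42 ± 0.10 (adjusted p = 0.00533), from a mean of 2.80 that is already below 4, the level used for testing, where the size of a change is inexact. ISG15 itself had 6.73 ± 0.23 (SD, n = 4) at 0 min and 7.06 ± 0.08 (SD, n = 3) at 24 h, a difference that limma did not call (adjusted p = 0.0645).

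The 3 RNA helicases all passed the test upward. IFIH1 (MDA5), which detects long double-stranded RNA, read 7.80, 7.71, 7.97 and 7.77 at 0 min and 8.64, 8.73 and 8.89 at 24 h, a rise of 0.94 ± 0.10 with no overlap (adjusted p = 8.79e-06). RIGI, which detects RNA with a triphosphate end, read 8.55, 8.04, 8.39 and 8.61 and then 9.58, 9.49 and 9.47, again apart, and rose by 1.12 ± 0.13 (adjusted p = 2.22e-05). Its probe set is of a kind marked for probes that may match other transcripts too. DHX58 (LGP2), which tunes both, read 3.20, 3.34, 3.11 and 2.76 before and 4.02, 4.21 and 4.06 after. It crossed the level of 4 only at 24 h, with a rise of 0.99 ± 0.13 (adjusted p = 5.46e-05) whose size is inexact. It passed the filter on low values only through these 3 arrays at 24 h, so it was tested because it was high there, and its call is no support for the counts it enters. EIF2AK2 (PKR), the kinase that halts translation on double-stranded RNA, had 11.58 at 0 min and 11.46 at 24 h with overlapping arrays (change -0.12 ± 0.14, adjusted p = 0.528). Another probe set of this gene, above 4 on all 25 arrays, went the other way, with a mean higher by 0.31 at 24 h.

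The effectors that degrade or bind RNA were divided within gene clusters, with 3 up, 2 down and 4 not called of 9. These counts lie near the shares of all genes, 24.1% up and 18.3% down. IFIT3, which steadies IFIT1 on RNA, read 6.67, 6.45, 7.06 and 6.45 at 0 min and 8.10, 8.10 and 8.31 at 24 h and rose by 1.52 ± 0.17 (adjusted p = 1.62e-05), with all later arrays higher. IFIT1, which lies in the same cluster and binds foreign RNA ends, read 6.54, 6.36, 6.32 and 6.85 and then 5.93, 5.97 and 6.11. All later arrays were lower, and it fell by 0.51 ± 0.13 (adjusted p = 0.00757). IFIT5, the last of the 4 genes, fell by 0.67 ± 0.18 (adjusted p = 0.0105), and IFIT2, the first, changed by 0.04 ± 0.25 and was not called (adjusted p = 0.915), or rose by 0.34 against replicates 1 to 3 (adjusted p = 0.0138). The OAS genes, whose products make the second messenger of RNase L, were split as well. OAS1 read 6.08, 5.70, 5.37 and 6.33 at 0 min and 7.49, 6.97 and 7.99 at 24 h, a rise of 1.61 ± 0.25 without overlap (adjusted p = 0.000257). OAS3 read 9.11, 9.05, 8.97 and 8.67 and then 9.63, 9.65 and 9.68, a smaller rise of 0.70 ± 0.12, also without overlap (adjusted p = 0.000365). OAS2, beside them on chromosome 12, stayed below 4, with 2.21 and 2.34. The mean over a gene's probe sets gave OAS3 a change of 0.07 and no call, since its other probe set, mostly below 4, had a lower mean at 24 h.

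Among the GTPases and membrane restriction factors 4 of 7 tested rose and none fell. IFITM1, a membrane protein that blocks virus entry, read 9.80, 9.80, 9.69 and 9.82 at 0 min and 11.23, 11.22 and 11.14 at 24 h, with little spread in either group. Its rise was 1.42 ± 0.09 (adjusted p = 1.12e-07), and its probe set may also match close relatives of the gene. MX1, a GTPase that traps viral nucleocapsids, read 5.03, 5.00, 4.90 and 4.60 and then 6.17, 6.59 and 6.30, wholly above the earlier arrays, a rise of 1.47 ± 0.13 (adjusted p = 2.63e-06). BST2 (tetherin), which holds budding virus at the cell surface, read 10.12, 10.09, 10.27 and 9.64 before and 10.78, 10.93 and 10.74 after and rose by 0.79 ± 0.15 (adjusted p = 0.000939). The guanylate-binding protein gene GBP1 rose by 0.46 ± 0.17 (adjusted p = 0.0496), near the threshold and with overlapping arrays. It lost its call with the shared term, which here equals leaving out replicate 4 (adjusted p = 0.0745), and when any single 24 h array was left out (adjusted p from 0.0873 to 0.127). The call was also lost without 0 min replicate 1 or 2 (0.0858 and 0.0938), any single 30 min array, or 6 h replicate 2 or 3. GBP2 changed by 1.02 ± 0.43 and was not called (adjusted p = 0.0776), while against replicates 1 to 3 the change was 0.48 ± 0.14 and called (adjusted p = 0.00978). RSAD2 (viperin) stayed at 2.75, below 4, and MX2 at 1.77.

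Of the 5 PARP and DTX3L genes 4 rose. PARP9 and DTX3L, whose products work as a complex of an ADP-ribosyltransferase and a ubiquitin ligase, start beside each other on opposite strands of chromosome 3. PARP9 read 9.11, 8.94, 8.46 and 9.11 at 0 min and 11.15, 11.11 and 10.95 at 24 h, and the rise of 2.16 ± 0.17 (adjusted p = 7.29e-07) left a wide gap between the groups. The probe sets of PARP9 and SP110, like that of IFITM1, may match other transcripts. By their kind the same holds for those of IRF7, ISG15, EIF2AK2, IFIT5, GBP1, PARP10, PARP12, IFI16, IFI35, IFI44, PLSCR1 and TRIM22. DTX3L read 10.72, 10.77, 10.94 and 11.13 and then 11.63, 11.64 and 11.31. The groups did not overlap, but the rise was smaller, 0.64 ± 0.12 (adjusted p = 0.000783). PARP14, an ADP-ribosyltransferase encoded further along the same chromosome, read 7.66, 7.64, 7.995 and 8.88 at 0 min and 10.07, 10.18 and 10.14 at 24 h. Replicate 4 was the highest of the earlier arrays and still below all later ones, and the rise was 2.09 ± 0.24 (adjusted p = 1.98e-05). PARP10 rose by 0.51 ± 0.14 (adjusted p = 0.0125, or 0.0534 without 24 h replicate 3), and PARP12 changed by -0.36 ± 0.16 and was not called (adjusted p = 0.0844).

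In the TRIM and SP100 families 3 of 4 tested genes rose. SP100, the core gene of a kind of nuclear body, read 9.73, 9.56, 9.92 and 9.62 at 0 min and 10.62, 10.64 and 10.57 at 24 h, a rise of 0.91 ± 0.10 without overlap (adjusted p = 1.9e-05). Its relative SP110 read 9.28, 9.32, 9.01 and 8.94 and then 9.72, 9.595 and 9.73, again apart, and rose by 0.55 ± 0.13 (adjusted p = 0.00366). TRIM21, a ubiquitin ligase that recognises antibody-coated virus, read 6.41, 6.67, 6.38 and 6.75 and then 6.79, 6.97 and 7.30. Its groups were apart by a narrow margin, with a rise of 0.47 ± 0.15 (adjusted p = 0.0226). It was not called without 24 h replicate 3 (adjusted p = 0.121) or without 0 min replicate 1 or 3 (0.0574 and 0.0595). TRIM22, a ligase not tested because fewer than 3 arrays passed 4, read 2.13, 2.21, 1.80 and 1.85 at 0 min and 3.44, 3.94 and 4.14 at 24 h.

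The largest change of any member was that of XAF1, which encodes an antagonist of the caspase inhibitor XIAP. XAF1 read 4.22, 4.15, 3.93 and 4.28 at 0 min, close to the level of 4, and 7.67, 7.71 and 7.76 at 24 h. The 3 later arrays lay close together and far above the rest, and the rise was 3.57 ± 0.14 (adjusted p = 2.56e-09), or 11.9-fold. A further XAF1 probe set that passed the filter rose by 2.74. The neighbours SAMD9 and SAMD9L encode related proteins that restrain growth and virus. SAMD9L read 4.52, 4.73, 4.27 and 5.75 and then 7.07, 7.34 and 7.26, with replicate 4 the highest of the earlier arrays, and rose by 2.41 ± 0.26 (adjusted p = 1.45e-05). SAMD9 read 9.98, 10.00, 10.16 and 10.54 and then 10.99, 10.89 and 11.01, a rise of 0.79 ± 0.14 without overlap (adjusted p = 0.000585). IFI35 read 8.47, 8.53, 8.05 and 8.002 at 0 min and 9.54, 9.63 and 9.71 at 24 h, all later arrays higher, and rose by 1.37 ± 0.16 (adjusted p = 2.5e-05). IFI16, a nuclear DNA sensor, rose by 2.15 ± 0.29 (adjusted p = 7.86e-05), and the secreted glycoprotein gene LGALS3BP by 0.57 ± 0.17 (adjusted p = 0.0185, or 0.0538 and 0.0523 without 24 h replicate 2 or 3). Without 0 min replicate 4 the rise of LGALS3BP was 0.37 and still called. IFI6, IFI27, IFI44 and IFI44L, often among the strongest responders to type I interferon, had means below 4 in BT20 at 0 min and 24 h and were not called at 24 h, with changes between -0.07 and 0.14.

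**Figure D2:**
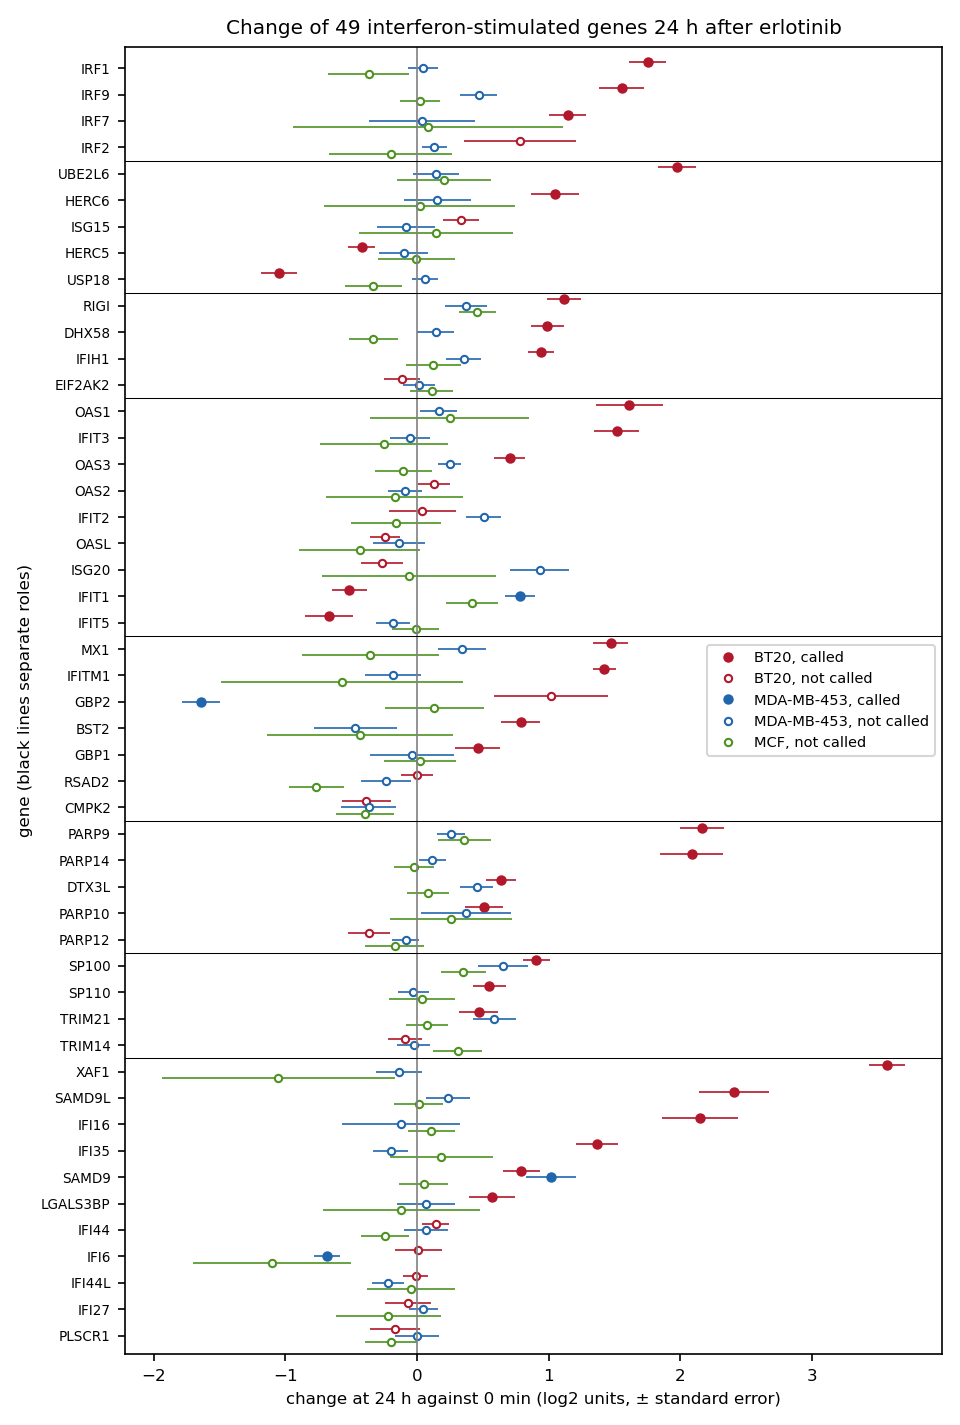
Change between 0 min and 24 h of erlotinib in log2 units (x axis, point and standard error of the fit) for the 49 tested members (y axis, by role) in BT20, MDA-MB-453 and MCF; filled points passed the test at an adjusted p under 0.05. In BT20 28 points are filled to the right of 0 and 4 to the left, in MDA-MB-453 2 and 2, and in MCF none.

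In BT20 9 of the 49 tested members had means below 4 at both times, and HERC5 was the only one of them that was called. Of these 9, all but HERC5 and ISG20 passed the filter only through MCF arrays. The promoter letters are given next as a description without a test. An ISRE core was in 9 of 25 promoters of members that rose (36.0%) and in 12 of 15 of tested members that did not (80.0%). Of the 15, 7 lay below 4 in BT20 at both times, IFI27 among them, and 6 of these 7 held an ISRE core, as did 6 of the other 8. A GAS was in 7 of the 25 (28.0%), namely BST2, IFI35, IFITM1, IRF1, IRF9, OAS1 and PARP14, and in 1 of the 15 (6.67%), IFI27. The IFIT promoters shown above are examples, since the 2 ISRE cores stand before IFIT3, which rose, as well as before IFIT1 and IFIT5, which fell.

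**Figure D3:**
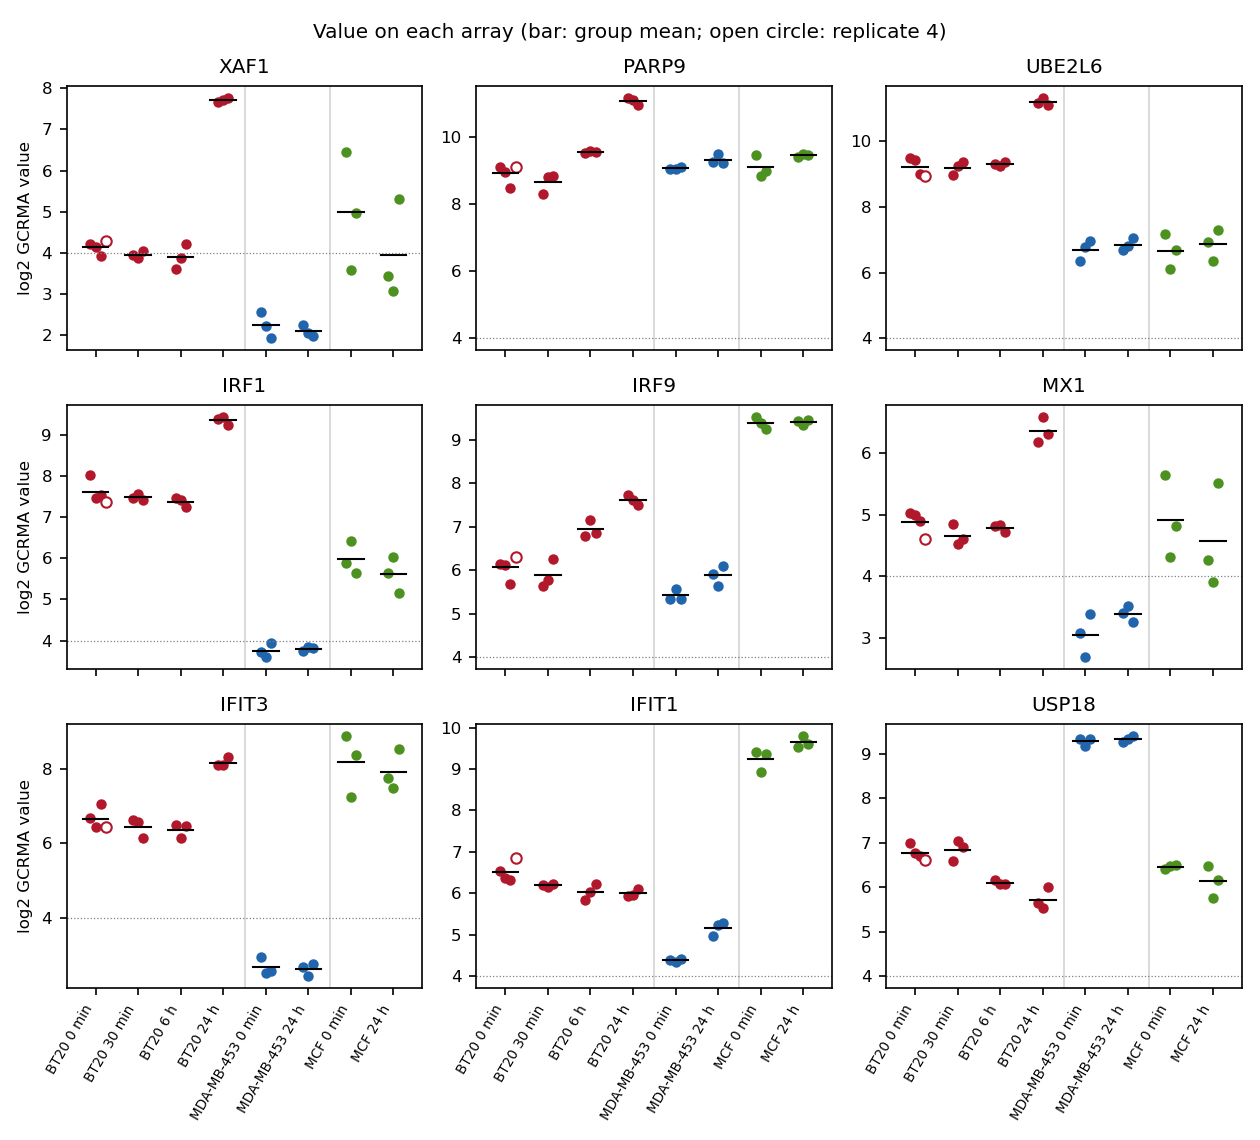
Log2 GCRMA value of 9 members on each of the 25 arrays (y axis; the axis range differs between panels) by cell line and time (x axis), with bars at group means and an open circle for BT20 0 min replicate 4; the dotted line marks 4. XAF1, PARP9, UBE2L6, IRF1, IRF9, MX1 and IFIT3 are highest among the BT20 groups at 24 h, while USP18 is lowest there. IFIT1 is about equally low in BT20 at 6 h and 24 h (means 6.03 and 6.00).

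At 6 h in BT20 the picture depended on which 0 min arrays were used. Against all 4, 14 members rose and 15 fell (background 26.1% up and 25.9% down). Without replicate 4 the counts were 17 and 16, and they were 13 and 9 without 6 h replicate 1, or 10 and 8 in a fit to all 25 arrays (38.2% of all genes called). Against replicate 4 alone, with the spread taken from the other groups, IRF7 and IFI16 rose and IFIT1 and GBP1 fell, 4 of 49, where 3.62% of all genes rose and 3.61% fell. These 4 were also called in the same direction against all 4 arrays. IFI16 read 7.43, 7.65, 7.06 and 8.72 at 0 min, with replicate 4 the highest, and 9.76, 9.66 and 10.04 at 6 h, above them all. It rose by 2.10 ± 0.29 (adjusted p = 0.000407), or by 1.10 ± 0.20 against replicate 4 alone (adjusted p = 0.00606). IRF7 read 7.06, 7.19 and 7.49 at 6 h, also above every 0 min array, a rise of 0.55 ± 0.14 (adjusted p = 0.0078), or 0.83 ± 0.18 against replicate 4 (adjusted p = 0.0139). GBP1 fell by 1.16 ± 0.17 (adjusted p = 0.000609), or by 0.76 against replicate 4. IFIT1 fell by 0.49 ± 0.13 (adjusted p = 0.00994), or by 0.83 against replicate 4, and without 6 h replicate 1 it was not called (adjusted p = 0.051).

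For other members the 6 h difference was largely shared with replicate 4. IRF2 read 10.15, 10.16 and 9.97 at 6 h, where replicate 4 read 9.77 and the other 0 min arrays 7.50 to 7.84. Its rise was 1.94 ± 0.43 against all 4 (adjusted p = 0.00394) and 0.33 ± 0.16, not called, against replicate 4 (adjusted p = 0.26). GBP2 read 5.52, 5.90 and 5.93 at 6 h and 5.59 on replicate 4, against 7.72 to 7.80 on the others, so that a fall of 1.43 became a difference of 0.19 in the other direction. Without 6 h replicate 1 the fall was not called (adjusted p = 0.0602). Another GBP2 probe set that passed the filter, with a mean of 2.55 at 0 min, went the other way, higher by 0.81 at 6 h. PARP14 (8.88 on replicate 4 and a mean of 8.93 at 6 h) and SAMD9L (5.75 and 6.12) behaved alike, with 0.05 and 0.36 against replicate 4. Of the 29 members called at 6 h against all 4 arrays, 4 kept the call against replicate 4 and 2, GBP2 and ISG20, took the opposite sign.

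**Figure D4:**
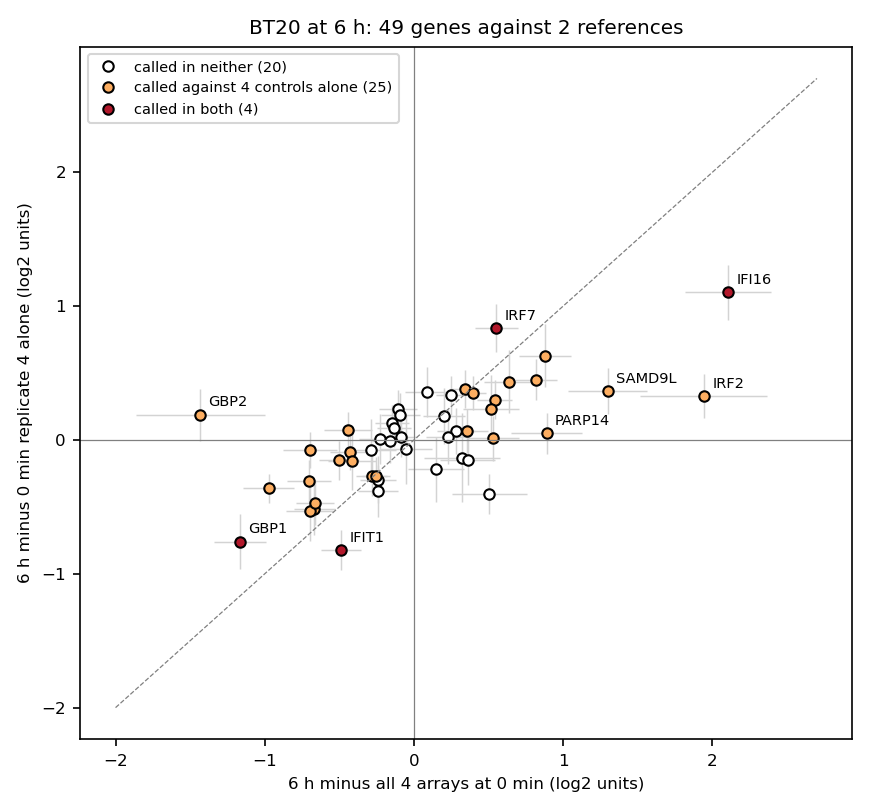
Change of the 49 tested members in BT20 at 6 h in log2 units, against all 4 arrays at 0 min (x axis) and against 0 min replicate 4 alone (y axis), with standard errors in grey and the line of equality dashed. IFI16, IRF7, IFIT1 and GBP1 (dark) were called on both axes and 25 members (orange) on the x axis alone; both axes share the 6 h arrays and replicate 4, so the points do not give independent support.

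From 6 h to 24 h 25 members rose and 7 fell (background 29.6% up and 24% down), or 25 rose and 1 fell with the shared term (background 15.5% up and 10.7% down), and without replicate 4 the counts were 28 and 8. A fit to all 25 arrays gave 22 and 4 (41.7% of all genes called). The count that fell lay between 2 and 4 when any single 24 h or 6 h array was left out, and IRF2 and IFI6 were among those that lost the call. Of the 28 members risen at 24 h, 23 (82.1%) were also higher at 24 h than at 6 h, where 66.4% of all genes risen at 24 h were. The count was 23 with the shared term too, where the share of all risen genes was 54.3%. Both comparisons use the same 24 h arrays, for which the 28 were picked. XAF1 read 3.60, 3.89 and 4.23 at 6 h, within the range of the earlier arrays or below it, and its rise from 6 h to 24 h was 3.81 ± 0.15 (adjusted p = 7.62e-09). UBE2L6 read 9.29, 9.24 and 9.35 at 6 h and rose by 1.89 ± 0.15 (adjusted p = 2.63e-06), and IRF1 read 7.46, 7.43 and 7.26 and rose by 1.98 ± 0.15 (adjusted p = 1.44e-06). In all 3 genes the 6 h arrays lay with those at 0 min and apart from those at 24 h. IFIT3 and MX1 followed the same course, with rises of 1.80 ± 0.18 and 1.56 ± 0.14 from 6 h. IRF9 was intermediate, at 6.79, 7.16 and 6.87 on the 6 h arrays, and rose further by 0.68 ± 0.18 (adjusted p = 0.00892). IFI16 and SAMD9 lay near their 24 h level at 6 h, with later changes of 0.05 ± 0.31 and -0.03 ± 0.15 that were not called. With the shared term these were 1.38 and 0.46. The former changes compare 24 h with 6 h directly and use no 0 min array. Their standard errors and calls do draw on the spread of all BT20 arrays, those at 0 min included. The shared-term values also take out of 6 h the difference between replicate 4 and replicates 1 to 3, which rests on 1 array. The size of other changes from 6 h moved as well, to 2.32 ± 0.19 in PARP14 from 1.20 ± 0.25, to 2.35 ± 0.21 in SAMD9L from 1.11 ± 0.28, and to 0.29 ± 0.24 (not called) in GBP2 from 2.45 ± 0.46. IRF2 fell by 1.16 from 6 h to 24 h, or rose by 1.00 with the shared term. At 30 min none of the 49 members passed limma's test, and of all genes tested 0.00791% were called.

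In MDA-MB-453 the same 24 h called 4 members, 2 up and 2 down of 49, where 5.66% of all genes rose and 2.64% fell, and 13 (26.5%) had an unadjusted p under 0.05, against 24.5% of all genes. IFIT1 read 4.39, 4.33 and 4.41 at 0 min and 4.96, 5.24 and 5.28 at 24 h, a rise of 0.78 ± 0.11 without overlap (adjusted p = 0.0121). SAMD9 read 4.20, 3.80 and 3.81 and then 4.95, 4.64 and 5.26, from about the level of 4 to above it, and rose by 1.02 ± 0.19 (adjusted p = 0.0271). GBP2 read 8.62, 8.32 and 8.69 and then 7.13, 6.80 and 6.78. All later arrays were lower, and it fell by 1.64 ± 0.15 (adjusted p = 0.00352). IFI6 read 3.91, 3.78 and 3.78 and then 3.23, 3.02 and 3.17, all below 4, and fell by 0.68 ± 0.10 (adjusted p = 0.0121). IRF1 and XAF1 stayed below 4 in this line, at 3.80 and 2.10 at 24 h. Leaving out 1 array at a time left only GBP2 called in every case. IFIT1 lost its call without 0 min replicate 1 or 2, SAMD9 without 0 min replicate 2 or 3 or 24 h replicate 1, and IFI6 without replicate 1 of either time. The counts of members up and down were 2 and 1 without 0 min replicate 1, 0 and 2 without 0 min replicate 2, 1 and 2 without 0 min replicate 3 and 1 and 1 without 24 h replicate 1. A fit to all 25 arrays gave 5 up, IFIT1, SAMD9, DTX3L, TRIM21 and SP100, and 1 down, with 5.77% of all genes called. In a fit with a term for each replicate number none of the 4 members, GBP2 included, kept its call.

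In MCF no member passed limma's test at 24 h, and 0.00791% of all genes were called. A fit to all 25 arrays called 1, RSAD2, downward (-0.76, adjusted p = 0.0137, where 3.2% of all genes were called). The members spread widely between MCF replicates, since 17 of 49 had an SD over 0.5 at 0 min and 19 at 24 h, against 6 and 1 in BT20 and 4 and 3 in MDA-MB-453, and over all genes 27.2% and 26.5% in MCF had one. XAF1 read 6.45, 3.57 and 4.96 at 0 min and 3.45, 3.08 and 5.30 at 24 h, and IFITM1 11.25, 8.64 and 10.14 and then 9.58, 7.93 and 10.80, so that in both genes replicate 2 was the lowest at either time and the groups overlapped. IRF7 read 9.39, 6.26 and 8.90 and then 8.35, 6.83 and 9.61, with replicate 2 again lowest. Replicate 2 was the lowest of the 3 in 25 of 49 members at 0 min and in 27 at 24 h (51.0% and 55.1%), and in 44.4% and 42.6% of all genes tested. Other members were tight in MCF. IRF9 read 9.52, 9.39 and 9.24 and then 9.43, 9.35 and 9.45, a difference of 0.02 ± 0.15.

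The 24 h change itself was compared between lines. It was higher in BT20 than in MDA-MB-453 for 20 members and lower for 3 (background 11.6% higher and 10.6% lower). With the shared term all 23 kept the call. Of the 20, 19 are among the 28 that rose in BT20, but the difference contains the same BT20 change that picked the 28. The difference was 3.70 ± 0.39 for XAF1 (adjusted p = 3e-07), 1.90 ± 0.21 for PARP9 (adjusted p = 5.03e-07), 1.83 ± 0.24 for UBE2L6 (adjusted p = 7.61e-06) and 1.71 ± 0.20 for IRF1 (adjusted p = 1.71e-06). In 10 of the 20, IRF1, DHX58, OAS1, IFIT3, MX1, IFITM1, IFI16, IFI35, XAF1 and SAMD9L, MDA-MB-453 lay below 4 at both times, so the size of the difference is inexact. OAS3, BST2 and SP110, also among the 20, lost the call when single arrays were left out. For OAS3 this was any BT20 24 h array, any MDA-MB-453 0 min array, or MDA-MB-453 24 h replicate 1 or 3. For BST2 it was BT20 24 h replicate 1 or 2, MDA-MB-453 0 min replicate 3 or 24 h replicate 3, and for SP110 BT20 24 h replicate 1 or 3, MDA-MB-453 0 min replicate 1, or 24 h replicate 1 or 3. The other member is GBP2, with 2.66 ± 0.51 (adjusted p = 0.000492), whose fall in MDA-MB-453 met a change that was not called in BT20. The 3 lower ones were IFIT1 (-1.30 ± 0.17, adjusted p = 8.33e-06), USP18 (-1.11 ± 0.18, adjusted p = 7.06e-05) and ISG20 (-1.20 ± 0.35, adjusted p = 0.0157), an exonuclease gene. IFIT1 was called in opposite directions in BT20 and MDA-MB-453. Against MCF the change in BT20 was higher for 12 members and lower for 1 (background 4.97% higher and 2.6% lower). With the shared term 11 of these 13 kept the call. The 12 all belong to the 28 and also stood above MDA-MB-453. They are IRF1, IRF9, UBE2L6, IFIH1, DHX58, OAS3, IFIT3, MX1, PARP9, PARP14, XAF1 and SAMD9L, and the difference for XAF1 was 4.62 ± 0.62 (adjusted p = 3.59e-05). DHX58 and SAMD9L lay below 4 in MCF at both times. DHX58 was tested only because of its BT20 arrays at 24 h, so its calls are no support for the counts against either line. The lower one was IFIT1 (-0.93 ± 0.28, adjusted p = 0.0424). Without MCF 24 h replicate 1 the count of 12 became 7, as IFIH1, OAS3, IFIT3, MX1 and IRF9 lost the call. All of these but IRF9 also lost it without MCF 0 min replicate 1 or 3 or MCF 24 h replicate 2. IFIH1 lost it too without BT20 0 min replicate 1, 2 or 4 or 24 h replicate 2 or 3. For OAS3 the same held for BT20 0 min replicate 3 or 4 or any BT20 24 h array. IFIT1 lost its call without BT20 0 min replicate 1, BT20 24 h replicate 1 or 2, MCF 0 min replicate 2 or 3, or MCF 24 h replicate 1 or 2. A fit to all 25 arrays gave 18 higher and 2 lower (15.4% of all genes called). Both comparisons use the BT20 arrays, so they are not independent of each other. Each also contains the BT20 change that picked the 28, so the overlaps with the 28 are no further support.

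Before the drug, BT20 and MDA-MB-453 differed in 43 of 49 members, 25 higher in BT20 and 18 lower, where 36.7% of all genes tested were higher and 37.7% lower. These values use all 4 BT20 arrays, and with the shared term 42 of the 43 kept the call. IRF1 had 7.61 ± 0.29 (SD, n = 4) in BT20 and 3.76 ± 0.18 (SD, n = 3) in MDA-MB-453, a difference of 3.85 ± 0.14 (adjusted p = 1.91e-16). IFITM1 had 9.78 against 1.48, IFI35 8.26 against 2.17, SAMD9 10.17 against 3.94 and LGALS3BP 10.57 against 3.64. In all 5 of these genes MDA-MB-453 lay below 4, so the size of the difference is inexact. USP18 went the other way, at 6.77 in BT20 against 9.28 in MDA-MB-453 (difference -2.51 ± 0.12, adjusted p = 3.83e-14), as did IRF7 (-2.76 ± 0.36), ISG15 (-1.82 ± 0.21), RIGI (-1.43 ± 0.13) and IFIH1 (-1.57 ± 0.11). In MCF, whose levels are not compared with those of the other lines, IFI6 had 11.41, IFI27 10.54, IFI44 10.09 and IFI44L 7.34 before the drug. Of the 49 members, 9 stayed below 4 at both times in BT20 and 18 in MDA-MB-453.

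Other genes of the pathway were read from 4 lists, whose counts stand beside 24.1% of all genes risen and 18.3% fallen in BT20 at 24 h, or 42.4% called. Of 20 interferon genes 18 were measured, and all had means below 4 in BT20 and MDA-MB-453 at every time. IFNB1 had 1.51 at 0 min and 1.65 at 24 h in BT20. In MCF IFNL2 reached 4.05 at 24 h, and it was the one interferon gene tested, with no call. Of 9 receptor and kinase genes 4 rose in BT20 at 24 h and 2 fell. IL10RB, a chain shared by the receptors of interferon lambda and interleukin 10, rose by 2.79 ± 0.16 (adjusted p = 5.24e-08), and IFNAR1 by 1.12 ± 0.16 (adjusted p = 9.8e-05). IFNAR2 rose by 0.93 ± 0.29 (adjusted p = 0.0211), and IFNLR1, near the threshold, by 0.89 ± 0.34 (adjusted p = 0.0492). Against replicates 1 to 3 these 2 rises were 1.12 and 1.29. IFNGR2, a chain of the interferon gamma receptor, fell by 1.38 ± 0.14 (adjusted p = 5.52e-06), and JAK1 by 0.35. Of 8 inhibitor genes 2 rose and 1 fell. SOCS1, a feedback inhibitor of JAK kinases, fell by 1.60 ± 0.11 (adjusted p = 2.74e-07), to a mean of 3.95, while CISH rose by 1.93 ± 0.09 and SOCS3 by 0.33 ± 0.08. Of 8 tested sensors and adaptors 3 rose and 2 fell. TLR3, a receptor of double-stranded RNA, went from a mean of 3.02, below 4, to 6.38 (3.36 ± 0.21, adjusted p = 1.26e-07), a rise of inexact size. STING1, the adaptor of cytosolic DNA sensing, went from 5.99 to 8.59 (2.60 ± 0.19, adjusted p = 4.03e-07), and MAVS, the adaptor of RIGI and IFIH1, from 10.6 to 11.3 (0.76 ± 0.10). TRAF3 fell by 0.85 and TICAM1 by 0.49. In MDA-MB-453 IFNAR1 alone of these lists was called, with a rise of 0.87 ± 0.10 (adjusted p = 0.00678), and in MCF none was.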

How the data were processed

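RNA of 25 samples was measured on Affymetrix arrays, and the authors deposited log2 values made with GCRMA 2.20.0 in R 2.11.1, per the submitters' processing notes. Each gene was read from the single-symbol probe set with the highest mean over 25 arrays, and 12643 genes above log2 4 on at least 3 arrays were tested. limma 3.58.1 (R 4.3.3) fitted each line alone, with 9 residual degrees of freedom for BT20 and 4 for each other line. Differences between lines came from all 25 arrays with 1 weight per line. P-values were adjusted over all genes tested (Benjamini-Hochberg), and an adjusted p under 0.05 is called. The comparisons with 0 min within a line were tried on simulated data with independent noise and no array set apart like replicate 4. The other fits were not simulated. The number of arrays limits the precision. Values by array are given for the regulators, the 3 measured members of each role with the smallest p in BT20 at 24 h, and any member called in MDA-MB-453 or MCF; for IFI16 and TRIM22 they were chosen after their values were seen. The members and lists were chosen with earlier results of these data known. Alternatives are in the closing section. Promoters came from RefSeq (GRCh38.p14).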

Additional observations from a re-analysis of the deposited data

Results flagged for a closer look

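In the group of BT20 arrays at 0 min, the 29 members described by array under the naming rule were examined for a single array far from the others, and 4 had one. Replicate 4 was the highest for IRF2 (9.77) and for IFI6 (3.81) and the lowest for GBP2 (5.59). Replicate 3 was the lowest for IFITM1 (9.69), where the whole range was small. By chance this rule picks an array in about 5% of groups, so a single case says little, and the other groups, of 3 arrays, were not examined.

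The 24 h change differed between BT20 and MDA-MB-453 for 21 of the members described by array. BT20 had the higher change for the regulators IRF1 (by 1.71) and IRF9 (1.09), for UBE2L6 (1.83) and for the RNA sensors RIGI (0.75), IFIH1 (0.59) and DHX58 (0.85). It was also higher for OAS1 (1.45), OAS3 (0.45), IFIT3 (1.57), MX1 (1.13), GBP2 (2.66), IFITM1 (1.61) and BST2 (1.26), though OAS3 and BST2, like SP110, lost the call when single arrays were left out. BT20 was higher as well for PARP9 (1.90), PARP14 (1.97), SP110 (0.58), IFI35 (1.56), XAF1 (3.70) and SAMD9L (2.17). BT20 had the lower change for USP18 (-1.11) and IFIT1 (-1.30).

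Between BT20 and MCF the change differed for 13 members. BT20 was higher for IRF1 (2.12), IRF9 (1.53), UBE2L6 (1.77), IFIH1 (0.82), DHX58 (1.32), OAS3 (0.81), IFIT3 (1.77), MX1 (1.83), PARP9 (1.80), PARP14 (2.109), XAF1 (4.62) and SAMD9L (2.40), and lower for IFIT1 (-0.93). Of these, IFIH1, OAS3, IFIT3, MX1, IRF9 and IFIT1 lost the call when single arrays were left out. DHX58, flagged against both lines, passed the filter only through the BT20 arrays at 24 h, so its calls are no support. Each difference is that of 2 changes in log2 units in the limma fit with 1 weight per line, and both sets use the same BT20 arrays.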

How the results depend on the processing

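Of the 32 members called in BT20 at 24 h, 30 or 31 kept the call with no filter on low values, averaged probe sets, trended and robust empirical Bayes, repeated quantile normalization, median centring, the shared term or the replicate block, and 25 with 1 fit to 25 arrays. With the term shared by 0 min replicate 4 and 6 h, GBP2 (0.19) and ISG20 (0.073) turned their direction at 6 h, as did IFI6 (0.17) and IRF2 (1.00) from 6 h to 24 h. The same term gave 2 up and 2 down at 6 h, 7 down at 24 h and 1 down from 6 h to 24 h. One fit to 25 arrays gave 8 down at 6 h, 4 down from 6 h to 24 h, 5 up and 1 down in MDA-MB-453, 1 down in MCF and 2 lower in BT20 than in MCF. With no filter 4 fell from 6 h to 24 h, and with trended and robust empirical Bayes 0 were lower in BT20 than in MCF. Few same-numbered arrays deviated together (4 of 18 pairs in BT20, 1 of 3 in MDA-MB-453 and 1 of 3 in MCF had a correlation over 0.1, and 2 of 13, 1 of 6 and 2 of 6 arrays were most like their own number). In MCF the highest such correlation was 0.796, and 0.770 between arrays of unlike number. With 3 pairs each in MDA-MB-453 and MCF, the values cannot tell whether the numbers pair samples. The main fits use no pairing. With a replicate block 7 members fell in BT20 at 24 h, 0 rose and 0 fell in MDA-MB-453 and 0 were lower in BT20 than in MCF. Except where a term's own construction shows it, the cause was not tested.

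Leaving out 1 array at a time gave 24 to 30 up and 4 to 7 down in BT20 at 24 h, 10 to 17 up and 9 to 16 down at 6 h, and 25 to 28 up and 2 to 8 down from 6 h to 24 h. It gave 0 to 3 up and 1 to 2 down in MDA-MB-453, 17 to 22 higher and 3 to 4 lower in BT20 than in MDA-MB-453, 7 to 15 higher and 0 to 1 lower in BT20 than in MCF, and 24 to 26 higher and 16 to 18 lower before the drug. At 30 min and in MCF it gave 0.

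The limits are the number of arrays, 3 or 4 a group, the lack of an untreated 24 h group, and values below 4, where signal is near background and the size of a change is inexact. MCF members with a wide spread had little power. Probe sets of close relatives cannot be told apart.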

Other observations

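Of the 3 members measured but not tested, MX2 and EPSTI1 stayed below 4 on every array, with means of 1.68 and 2.54 in BT20 at 0 min and 1.77 and 2.81 at 24 h. TRIM22 passed 4 on a single array, BT20 24 h replicate 3. Of the members with more than 1 probe set past the filter, 25 in number, 19 had all of them changed in one direction between 0 min and 24 h in BT20. IRF1 was an example, with 1.75 and 1.71, and OAS3 was not, with 0.70 and -0.57.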
